A study of Rattus norvegicus and Mus musculus with 10 samples.

Results

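The deposited mouse expression matrix holds 8126 cell barcodes from skull dura, and the deposited cluster table names a cell type for all but 771 of them. These 771 unannotated barcodes are described here. They were found as the entries of the barcode list that the cluster table lacks, and each was given to its condition by the library suffix that annotated barcodes of the same library carry. The naive library held 350 of them among 3126 barcodes and the library from experimental autoimmune encephalomyelitis (EAE) held 421 among 5000. Both libraries came from C57BL/6 mice without any named transgene: 4 unimmunized mice pooled as controls, and 3 mice pooled at the peak of EAE, an autoimmune disease of the central nervous system induced by immunization. Condition was taken from the sample titles, since the condition field of the labels gives EAE for both libraries. Cells were sorted, per the labels, as CD45-positive leukocytes that an intravascular CD45 antibody had not stained. The labels state a mean of 3900 cells used per mouse sample, the 2 libraries hold a mean of 4063 barcodes, and annotated barcodes average 3677.5. Each condition is therefore 1 pooled library: no difference between conditions has a replicate check, no test was run, and all 95% intervals cover counting error only.

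The dura is the outer meningeal layer, and it lies against skull bone marrow, where blood cells form. A neutrophil precursor first makes primary granules (elastase, proteinase 3, myeloperoxidase and cathepsin G, encoded by Elane, Prtn3, Mpo and Ctsg) at the promyelocyte stage, and then secondary granules (lactoferrin, cathelicidin and neutrophilic granule protein, encoded by Ltf, Camp and Ngp) at the myelocyte stage. Red cell precursors fill with globin and lose most other RNA, and circulating red cells carry no nucleus.

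Unannotated barcodes made up 11.2% of naive barcodes (95% interval 10.1 to 12.4, exact Clopper-Pearson) and 8.42% of EAE barcodes (7.66 to 9.22). They carried 10.7% of the 16809015 unique molecular identifiers (UMIs, each 1 counted RNA molecule) of the naive library and 15.2% of the 69901059 of the EAE library. In naive dura the unannotated barcodes were shallow, with a median of 1701 UMIs and 728 genes against 4163.5 and 1299.5 in annotated cells. In EAE dura they were deeper by median, with 19148 UMIs and 3352 genes against 11743 and 2557. Their lower quartile was not, at 8499 UMIs against 8696. Mitochondrial transcripts took a median of 2.84% of their UMIs in naive dura against 1.22% in annotated cells, and 2.67% against 1.59% in EAE dura. The libraries also began at different depths: no barcode of the EAE library had under 5722 UMIs, while naive unannotated barcodes went down to 491 and annotated ones to 503. Shallow barcodes could therefore be described in naive dura alone.

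Many unannotated barcodes lay outside the ranges that annotated cells of the same library covered. No annotated naive cell had over 5.99% mitochondrial UMIs, over 3953 genes or under 273 genes. Of the 350 naive barcodes, 160 (45.7%) were above that mitochondrial limit, 27 (7.71%) above the gene limit and 21 (6.00%) below the lowest gene number, 11 of them also above the mitochondrial limit. The remaining 153 (43.7%) were within all of these ranges. In EAE dura, where annotated cells reached 4.00% mitochondrial UMIs and 4997 genes, 172 of 421 (40.9%) were above the mitochondrial limit and 113 (26.8%) above the gene limit, 2 of them above both. Median depth was 8389 UMIs in those above the mitochondrial limit and 49975 UMIs in those above the gene limit. A further 138 (32.8%) lay within the annotated ranges, and none had fewer genes than the lowest annotated EAE cell. The scatter of genes against mitochondrial share shows these groups apart from one another. Which filter left each barcode without a name is not given in the sources used here.

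**Figure D1:**
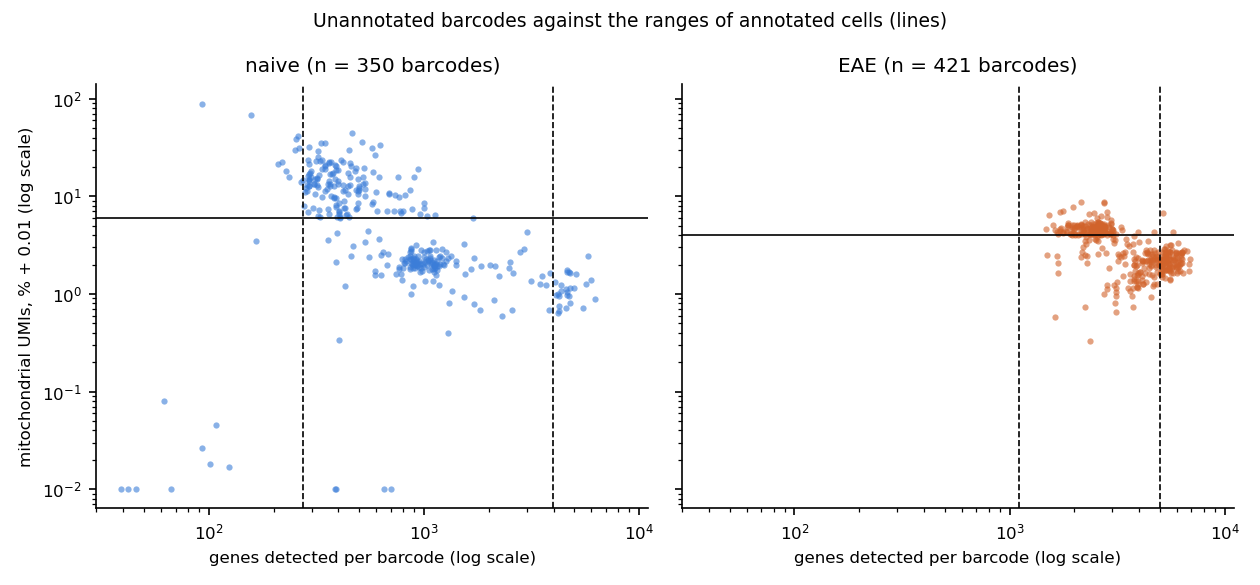
Each point is 1 unannotated barcode, by genes detected (log scale) and mitochondrial share of UMIs plus 0.01 (log scale), for naive (350) and EAE (421) dura. Dashed lines mark the lowest and highest gene number and the solid line the highest mitochondrial share of annotated cells in that library, and 153 naive and 138 EAE barcodes fall inside them.

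Clustered together, the unannotated barcodes formed 13 groups, and 9 of these carried enough of a marker list to be named. The erythroid-like (11 barcodes), ILC2-like (111) and endothelial-like (35 of 36) groups were from naive dura. The plasmacytoid-DC-like (89 of 90), myelocyte-like (66 of 68), monocyte-like (61 of 64) and promyelocyte-like (48 of 56) groups were mostly from EAE dura. Basophil-like barcodes occurred in both libraries, 7 naive and 15 EAE, as did B-cell-like ones, 12 and 17. With 1 library a condition, a group drawn mostly from 1 library may reflect that library, and the genes that lead a group are its definition.

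**Figure D2:**
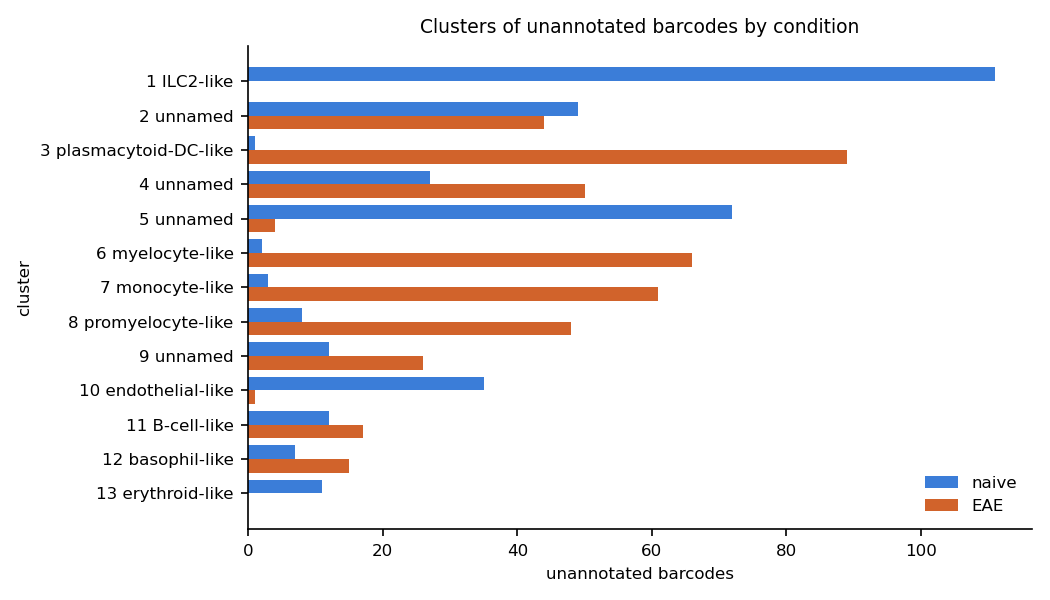
Bars give the number of unannotated barcodes in each of the 13 clusters, naive in blue and EAE in orange. ILC2-like (111) and erythroid-like (11) barcodes are all naive, and 89 of 90 plasmacytoid-DC-like barcodes are from EAE.

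Barcodes with immature granulocyte genes led in EAE dura, with 48 promyelocyte-like and 66 myelocyte-like ones among 421. The unannotated EAE barcodes, 8.42% of the library's barcodes with 15.2% of all its UMIs, held 62916 of its 66534 Elane UMIs (94.6%, interval 94.4 to 94.7). They also held 87.7% of Prtn3, 95.7% of Mpo, 96.1% of Ctsg and 84.1% of Ms4a3 UMIs, Ms4a3 being a gene of granulocyte and monocyte precursors. Shares were lower for Fcnb, which encodes ficolin B (44.4%), for the granulocyte transcription factors Cebpe (33.9%) and Gfi1 (53.6%), and for the secondary granule genes Camp (13.4%), Ngp (8.18%) and Ltf (3.71%). In naive dura the same pattern held at smaller numbers: 2235 of 2542 Elane UMIs (87.9%), 88.8% of Prtn3, 95.1% of Mpo and 94.9% of Ctsg UMIs were in unannotated barcodes, against 0.376% of Ltf. Gfi1 differed, with 11.2% of its naive UMIs there (7.42 to 15.9).

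**Figure D3:**
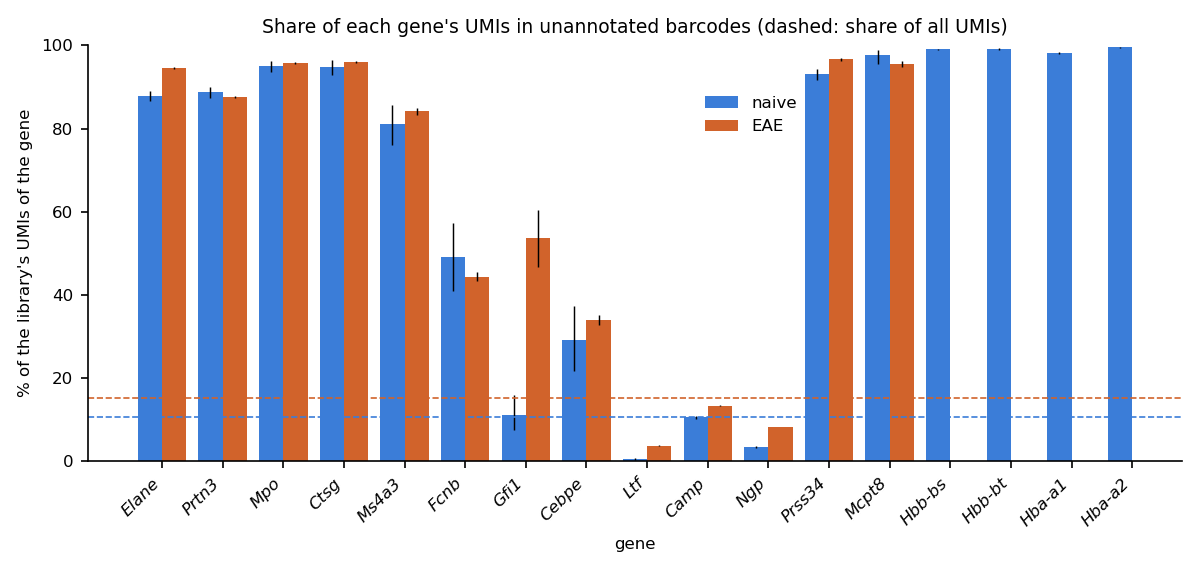
Bars give the percentage of a library's UMIs of each gene that lay in unannotated barcodes, with exact 95% intervals, and dashed lines the share of all UMIs (10.7% naive, 15.2% EAE). Elane, Mpo, Ctsg, Prss34 and Mcpt8 bars stand far above the lines in both libraries while Ltf and Ngp stand below, and EAE globin bars are left out because the library held under 20 UMIs of each.

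Levels were then compared as CPM (each gene's UMIs rescaled so that every set has an equal sum), with unannotated and annotated barcodes of a library each summed. Elane was at 5911 CPM in unannotated and 61.1 CPM in annotated EAE barcodes, 96.8-fold higher (93.6 to 100.1). The naive levels were 1241 and 20.5 CPM, 60.7-fold apart (53.8 to 68.6). Mpo was 125-fold higher (118 to 132) in EAE and 162-fold (123 to 215) in naive unannotated barcodes, and Ctsg was 137-fold (129 to 145) and 156-fold (110 to 229) higher. Prtn3 was 39.8-fold higher in EAE and 65.8-fold in naive, and Ms4a3 29.5-fold and 36.1-fold. Fcnb was 4.44-fold and 8.02-fold higher, and Cebpe 2.85-fold and 3.42-fold. With each barcode weighted equally the naive log2 ratios fell from 5.92 to 4.83 for Elane and from 7.29 to 4.89 for Ctsg, and that of Cebpe, at 0.27, was no longer past 2-fold. Gfi1 was 6.43-fold higher in EAE (4.90 to 8.46), while its naive levels of 14.4 and 13.8 CPM did not differ beyond counting error (0.668 to 1.58). Of the 8 primary granule genes, 8 were past 2-fold higher in EAE, where 15.7% of 12888 compared genes were, and 7 in naive dura, where 14.9% of 11526 were. The median log2 ratio of the list was 5.10 in EAE and 5.55 in naive, against 0.15 and 0.23 over all compared genes.

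Between conditions, unannotated EAE barcodes were higher than naive ones in 7 of the 8 primary granule genes past 2-fold, where 8.79% of 10812 genes were. Elane was 4.76-fold higher (4.57 to 4.97), Prtn3 5.32-fold (5.09 to 5.56), Mpo 4.48-fold (4.21 to 4.76) and Ctsg 7.81-fold (7.21 to 8.47). With each barcode weighted equally these 4 log2 ratios were larger, from 3.87 to 4.46 in place of 2.16 to 2.97, and among members within the annotated ranges they ran from 2.30 to 3.83. All 9 secondary granule genes were past 2-fold higher, with Ltf at 619 against 6.66 CPM and Camp at 9036 against 1501 CPM. That list was also higher in annotated T and NK cells of the EAE library, at 1334 CPM against 57.4 CPM in naive ones. With 3 or more UMIs required, 97.5% of those EAE cells and 0.361% of the naive ones carried it. Gfi1 stood at 11.2 and 14.4 CPM, within counting error (0.810 to 1.99). A larger number of such cells, more RNA per cell and free RNA from other cells cannot be told apart in these sums.

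Counted by barcode, 245 of 421 unannotated EAE barcodes (58.2%, 53.3 to 63.0) had 3 or more primary granule UMIs, against 30.5% of annotated EAE cells and 7.02% of annotated T and NK cells, which should lack these transcripts. The EAE medians were 19148, 11743 and 7332 UMIs. When every barcode was thinned to 1000 UMIs the shares were 42.3%, 1.82% and 0.0266%. In naive dura 21 of 350 (6.00%, 3.75 to 9.03) carried the list, against 0.865% of annotated cells and 0.0903% of T and NK cells at medians of 1701, 4163.5 and 4026.5 UMIs. Thinning left 4.69% of the 213 naive barcodes that had 1000 UMIs, and 137 shallower ones were left out. Among the 51 naive barcodes at least as deep as the shallowest annotated EAE cell, 41.2% carried it, so the size of the gap between conditions moved with depth.

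By median, granule genes set the promyelocyte-like and myelocyte-like EAE groups apart, but single barcodes overlapped. Primary granule genes took a larger share than secondary ones in 46 of 48 promyelocyte-like and 18 of 66 myelocyte-like EAE barcodes. The same held in 35 of 61 monocyte-like ones. In the 48 promyelocyte-like EAE barcodes, primary granule genes took a median of 3.95% of UMIs (0.304 to 7.85) and secondary granule genes 0.181%. In the 66 myelocyte-like EAE barcodes the medians were 1.86% (0.198 to 7.36) and 9.74% (0.457 to 18.4). Mature neutrophil genes, among them S100a8 and S100a9, took a larger share than either list in those 66 barcodes, a median of 22.1% (5.39 to 33.4), against 0.338% in the promyelocyte-like ones and 30.7% in annotated granuloProli cells of the EAE library. Ctsg and Mpo were at 7276 and 6938 CPM in the promyelocyte-like barcodes and 2242 and 3301 CPM in the myelocyte-like ones. Camp and Ngp were at 33737 and 26107 CPM in the myelocyte-like barcodes and 1075 and 836 CPM in the promyelocyte-like ones. Fcnb, at 1175 against 154 CPM, and Cebpe, at 539 against 202 CPM, were also higher in the myelocyte-like barcodes. These levels are a description, since the clusters were built from them.

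**Figure D4:**
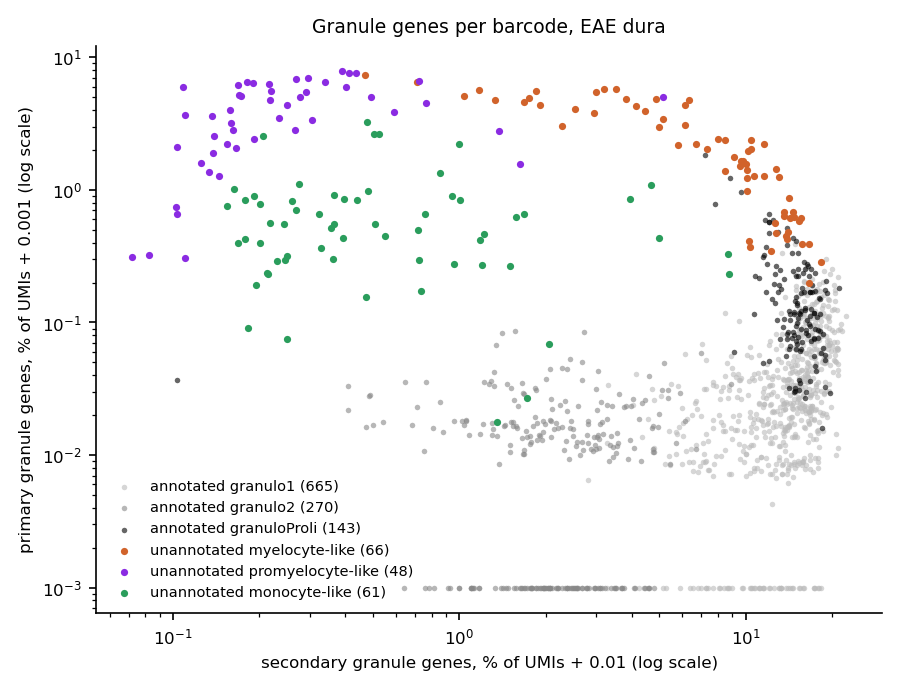
Each point is 1 EAE barcode, by share of UMIs from 9 secondary granule genes (plus 0.01, log scale) and 8 primary granule genes (plus 0.001, log scale). Promyelocyte-like barcodes (48) lie at the upper left and myelocyte-like ones (66) run from there towards the annotated granulocytes at the right, which reach at most 1.83% primary granule UMIs.

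The authors' cluster granuloProli (dividing granulocytes by its name, 143 EAE cells) was the annotated group nearest to 65 of the 66 myelocyte-like EAE barcodes by rank correlation, and BcProg (74 EAE cells) to 39 of the 48 promyelocyte-like and 55 of the 61 monocyte-like ones. The comparisons that follow were chosen after the data were seen. Against granuloProli, myelocyte-like barcodes were higher in 6 of 8 primary granule genes past 2-fold (14.4% of 7982 genes were, and 19.0% were in either direction) and lower in 6 of 9 secondary granule genes (4.66% were). Elane was 36.0-fold higher (34.1 to 38.1) and Ctsg 77.0-fold (64.5 to 92.6), and Ltf was 4.67-fold lower (4.54 to 4.80). Primary granule genes in granuloProli cells took a median of 0.117% and at most 1.83% of UMIs.

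Against BcProg, promyelocyte-like barcodes were past 2-fold higher in 8 of 8 primary granule genes, where 12.4% of 8375 genes were higher, 17.7% lower and 30.1% either. Mpo was 97.5-fold higher (81.9 to 117) and Elane 28.2-fold (26.2 to 30.4). Fkbp11, which encodes a chaperone of the secretory pathway, had 297 UMIs against 0, at least 72.2-fold higher with 3 UMIs in place of 0. The monocyte genes Fn1 and Vcan (9 and 2 UMIs) were 170-fold (89.3 to 373) and 140-fold (38.2 to 1162) lower. The B-lineage genes Vpreb3 and Cd79a were 126-fold (34.4 to 1049) and 79.5-fold (26.8 to 389) lower, and each was detected in 8 of the 74 BcProg cells. Against granuloProli, promyelocyte-like barcodes had 8 of 9 secondary granule genes past 2-fold lower (9.6% of 8520 genes were), with Ltf 103-fold (90.0 to 117) and Ngp 67.8-fold (64.9 to 70.8) lower. All 7 compared stem and progenitor genes were past 2-fold higher (40.8% of genes were, and 50.4% were in either direction), with Cd34, a progenitor surface protein, at 98 UMIs in 21 barcodes against 1 (173-fold, 30.4 to 6918).

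The promyelocyte-like EAE barcodes were also the deepest, with a median of 51288.5 UMIs, and 38 of 48 had more genes than any annotated EAE cell. Of the 61 monocyte-like EAE barcodes 35 were above that limit, and of the 66 myelocyte-like ones 17. Monocyte-like barcodes held Ly6c2 (2014 CPM), Plac8 (2072 CPM) and F13a1 (423 CPM) together with Elane (1882 CPM) and Prtn3 (3694 CPM), and a median of 0.513% primary granule UMIs. Summed over naive and EAE, the monocyte list was at 5661 CPM in that group, below the mature neutrophil (18682 CPM), secondary granule (8974 CPM) and primary granule (7677 CPM) lists. The median barcode had 0.557% of its UMIs from the monocyte list and 0.278%, 0.384% and 0.482% from those lists. In promyelocyte-like barcodes the monocyte list was at 4987 CPM, a median of 0.491%, so its level hardly separated these groups. In naive dura the promyelocyte-like group had 8 barcodes, and Elane was detected in 6 and Mpo in 7 of them, at 6542 and 4088 CPM. The myelocyte-like group had 2 naive barcodes, with Elane at 12153 CPM.

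All 113 EAE barcodes above the gene limit, and 25 of the 27 naive ones, held 3 or more UMIs from at least 2 of 7 lineage lists (T cell, B cell, mast, macrophage, plasmacytoid DC, primary granule and erythroid). Over all unannotated barcodes the shares were 76.7% (72.4 to 80.7) in EAE and 13.7% (10.3 to 17.8) in naive dura. Annotated cells stood at 74.4% and 23.7%, so the measure did not set the EAE barcodes apart. Median depth was 19148 and 11743 UMIs in the EAE sets and 1701 and 4163.5 in the naive ones, and the part of droplets with more than 1 cell was not tested.

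Erythroid RNA was found in naive dura. Of 11 erythroid-like barcodes, 9 held globin at between 93.2% and 99.1% of their UMIs, and these 9 held 54715 of the 54754 globin UMIs of all 350 naive unannotated barcodes. The deepest had 14902 UMIs, of which 14617 were globin, and only 124 genes. The shallowest of the 9 had 1012 UMIs and 42 genes. Mitochondrial transcripts were at most 0.0694% of UMIs in these 9, and Ptprc, the gene for CD45 on which the cells were sorted, had 0 UMIs in each. With so few UMIs outside globin, this 0 cannot show whether Ptprc was expressed. The remaining pair of barcodes in the group held no globin, with 15.7% and 88.8% mitochondrial UMIs and no Alas2. Of the 11, 10 had fewer genes than any annotated naive cell, and 5 of the 9 with globin were shallower than any barcode of the EAE library. That difference in depth and the condition cannot be told apart for such barcodes.

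Hbb-bs, an adult beta globin gene, had 26211 UMIs in naive unannotated and 234 in naive annotated barcodes, and 2 and 8 in EAE. Hba-a1, an adult alpha globin gene, had 14131 and 255 in naive and 1 and 3 in EAE. Hbb-bt had 4283 and 34 in naive dura, and 12 and 5 in EAE. Hba-a2 had 10129 and 46 in naive dura, and 0 and 2 in EAE. Reads of near-identical copies, Hba-a1 with Hba-a2 and Hbb-bs with Hbb-bt, could be split between the pair by the counting, so only their sum is firm. Carriers of 3 globin UMIs were 9 of 350 naive barcodes (2.57%, 1.18 to 4.83), against 1.12% of annotated cells and 1.08% of T and NK cells, or 4.23% against 0.0814% and 0.0967% when thinned. In EAE they were 2 of 421 (0.475%, 0.0576 to 1.71), where no T or NK cell of 727 had 3 (exact upper bound 0.506%). All 4 globin genes were past 2-fold higher in naive unannotated over annotated barcodes, and all 4 were past 2-fold lower in EAE than in naive unannotated barcodes, where 13.7% of 10812 genes were.

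Of the 21 measured erythroid genes other than globin, few were detected in number. Alas2, the erythroid enzyme that begins haem synthesis, had 71 naive UMIs in 6 barcodes, 0 in annotated naive cells and 0 in the whole EAE library. Bpgm, which sets oxygen affinity of haemoglobin, was at 27.2 CPM in naive unannotated barcodes against 10.1 in annotated ones (2.70-fold, 1.92 to 3.75), and Fech, the last enzyme of haem synthesis, at 25.5 against 10.1 CPM (2.52-fold, 1.77 to 3.53). Car1, a red cell carbonic anhydrase, had 32 naive UMIs in 3 barcodes against 0, none of them in the erythroid-like group. Icam4 had 10 and 35 UMIs in naive dura (2.38-fold, 1.05 to 4.91), and Car2 (21.1 and 19.8 CPM) and Mkrn1 (86.1 and 119 CPM) were within 2-fold. In EAE, Icam4 was 7.91-fold (4.24 to 15.1) and Gata1, an erythroid, mast and basophil transcription factor, 9.46-fold (4.09 to 23.1) higher in unannotated barcodes, at 27 and 17 UMIs.

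Other genes of that list were near or at 0 in unannotated barcodes. Rhag had 1 naive UMI and 0 in EAE, Epor had 1 and 1, Hemgn 1 and 7, Klf1 0 and 2, Rhd 0 and 2, Ermap 0 and 5, and Tspo2 0 and 1. Slc4a1, Sptb and Cldn13 had 0 in both. Of 8 compared genes, 6 were past 2-fold higher in naive dura, where 14.9% of all genes were, and 2 in EAE, where 15.7% were. Between conditions 6 of 8 were past 2-fold lower in EAE unannotated barcodes, where 13.7% of all genes were, and none higher, with Bpgm 5.57-fold lower (3.69 to 8.39) and Alas2 at least 140-fold lower with 3 UMIs in place of 0. By barcode, this list gave 10.0% of naive and 56.3% of EAE unannotated barcodes with 3 UMIs, but T and NK cells of the same libraries stood at 9.93% and 34.9%, and Mkrn1, which many cell types express, held 1194 of the list's 1592 EAE UMIs. Thinned to 1000 UMIs the shares were 2.00% and 0.114% against 0.542% and 0.659% in T and NK cells.

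Transcripts of the basophil genes Prss34 and Mcpt8 were concentrated in unannotated barcodes in both conditions. The list of 8 basophil genes was carried by 9.50% of unannotated and 0.764% of annotated EAE barcodes. In naive dura 3.14% of unannotated and 6.27% of annotated barcodes carried it, although its level was 1054 against 120 CPM. Its naive UMIs were 1899 in unannotated and 1808 in annotated barcodes. Prss34 and Mcpt8, proteases of basophil granules, had 96.7% and 95.5% of their EAE UMIs and 93.1% and 97.7% of their naive UMIs in unannotated barcodes. Prss34 was 162-fold (145 to 181) higher than in annotated EAE cells and 113-fold (92.0 to 139) higher than in naive ones, and Mcpt8 118-fold (100.1 to 141) and 350-fold (176 to 817). All 22 basophil-like barcodes lay within the annotated ranges of genes and mitochondrial share. Basophil genes took a median of 6.51% of UMIs in the 15 EAE barcodes (0.140 to 12.8) and 1.39% in the 7 naive ones (0.480 to 7.58), so the groups overlapped. Fcer1a, a chain of the IgE receptor, was seen in 15 of 15 EAE and 2 of 7 naive barcodes, and Cyp11a1, a steroid-synthesis enzyme, in 15 of 15 and 7 of 7. Summed over the group, 2 of 8 basophil genes were past 2-fold higher in EAE and 1 lower (16.8% and 11.5% of 1546 genes were, 28.3% in either direction). The higher ones were Fcer1a at 7.88-fold (3.94 to 18.5) and Mcpt8 at 2.11-fold (1.88 to 2.37), and the lower one the cytokine gene Il6 at 4.15-fold (2.41 to 7.16). S100a9 and S100a8, 15.4-fold (5.94 to 57.0) and 12.9-fold (5.46 to 40.1) higher in EAE, are neutrophil genes, and their part as free RNA in these barcodes was not tested.

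Plasmacytoid-DC-like barcodes formed the largest EAE group, 89 of 421 (21.1%, 17.3 to 25.4), and every one of them was above the mitochondrial limit of annotated EAE cells, at a median of 4.64%. Siglech, Ccr9, Bst2, Tcf4 and Ly6d, which mark these interferon-producing dendritic cells, were each detected in 89 of 89. All 89 were nearest to the authors' pDC cluster (126 cells, median 3.47% mitochondrial UMIs). The 2 sets differed in few genes: 1.24% of 7111 genes were past 2-fold higher, 5.1% lower and 6.34% either in the unannotated barcodes, a comparison added after the data were seen. Of 7 plasmacytoid DC genes 1 was past 2-fold higher, Klk1 at 2.42-fold (2.18 to 2.69), and Siglech was at 1723 and 1361 CPM. Proliferation genes were lower in 10 of 12 compared, with Ube2c at 2 against 84 UMIs (26.3-fold, 7.06 to 221), Mki67 at 1 against 36 and Top2a at 2 against 62. Genes of other cell types were lower beside them, T cell genes in 5 of 8, macrophage genes in 5 of 6 and secondary granule genes in 6 of 7, and the part of annotated barcodes that hold such RNA was not tested. Interferon-response genes were higher in 2 and lower in 1 of 11, with Usp18 4.06-fold (1.96 to 9.04) and Rsad2 3.67-fold (1.68 to 8.64) higher.

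In naive dura the largest group was ILC2-like, 111 of 350 (31.7%, 26.9 to 36.9), and 93 of them lay within the annotated ranges. Its leading genes by fold over the other unannotated barcodes were Ccdc184, Stab2, Rasl11a and Csf2. The ILC2 list genes Arg1 (in 31 barcodes), Gata3 and Il1rl1 (in 56) stood at ranks 6, 8 and 9. ILC2 are innate lymphoid cells that resemble type 2 helper T cells but lack an antigen receptor. Gata3, their master transcription factor, was detected in 75 barcodes and Rora in 80, and the T cell list in all was at 1094 CPM, with 3 or more of its UMIs in 59 of the 111 barcodes (53.2%). Its UMIs lay mostly in Trbc2 (201), Lat (63), Thy1 (58) and Cd3g (35), while Cd28, Cd3d, Cd3e and Trac had 3, 2, 1 and 1. By rank correlation 86 of the 111 were nearest to the authors' CD4Tc cluster and 23 to their ILC cluster. In a comparison added after the data were seen, T cell genes were past 2-fold lower than in the 353 naive CD4Tc cells in 5 of 8 (19.7% of 5607 genes were, 2.14% were higher and 21.8% either), with Trac at 1 against 345 UMIs (90.2-fold, 16.1 to 3574) and Cd3e at 1 against 302 (79.0-fold, 14.1 to 3130). Trbc2, Lat and Thy1 were within 2-fold, at 1.98-fold, 1.85-fold and 1.53-fold lower. The genes highest over CD4Tc were Rasl11a (14.3-fold, 8.51 to 25.1, in 7 barcodes), Sec24a and Ncoa1, which are not of the ILC2 list. The ILC2 list was at 2653 CPM in the group. It was at 2816 CPM in all annotated naive cells and 1589 CPM in annotated naive T and NK cells.

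Set against the 507 annotated naive ILC, also after the data were seen, 6 of 8 ILC2 genes were past 2-fold lower (14.1% of 5711 genes were lower and 10.5% higher, 24.6% either). Il13 and Il5, the type 2 cytokines, had 17 and 22 UMIs against 2941 and 3794, 27.2-fold (17.0 to 46.8) and 27.1-fold (17.9 to 43.3) lower. Among the 93 barcodes within the annotated ranges, where 9.99% of 5657 genes were past 2-fold higher, 15.8% lower and 25.8% either, Il5 had 7 UMIs and was 80.7-fold lower (39.1 to 201), and Il13 27.4-fold (16.8 to 47.9). Areg, a growth factor, was 8.69-fold (7.62 to 9.95) and Calca, which encodes a neuropeptide, 5.41-fold (4.57 to 6.45) lower. Gata3 at 3.02-fold and Rora at 2.88-fold were lower by less, and Il1rl1, the receptor for interleukin 33, was 1.53-fold lower. Arg1 was at 114 and 95.5 CPM, within counting error. Among 12 compared inflammatory genes 7 were past 2-fold lower and 2 higher, with Ptgs2 at 1 against 196 UMIs and Cxcl1 at 3 against 533 (27.9-fold, 9.51 to 136). Median depth was 3124 against 3883 UMIs and median mitochondrial share 2.17% against 1.35%.

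Endothelial-like barcodes, 35 naive and 1 EAE, held Fabp4, Gpihbp1, Ly6c1 and Plvap, genes of capillary endothelium. In the 35 naive ones Plvap was at 2250 CPM in 27 barcodes, Ly6c1 at 5200 CPM in 34 and Emcn at 984 CPM in 25. Their median depth was 1480 UMIs at 1.96% mitochondrial UMIs, and all 35 lay within the annotated ranges. Ptprc was detected in 1 of the 36 barcodes, against 97.8% of plasmacytoid-DC-like and 55.0% of ILC2-like ones, although the sort was on CD45. All 8 endothelial genes were past 2-fold higher in naive unannotated over annotated barcodes, where 14.9% of all genes were, with Plvap 280-fold (118 to 873). The list was carried by 10.0% (7.06 to 13.6) of naive unannotated barcodes against 0.180% of annotated and 0.0903% of T and NK cells, and by 9.17% after thinning.

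Cluster 2 (49 naive, 44 EAE) stayed unnamed because its leading genes came from several lineages in few barcodes each. In EAE, Ctsk, the cathepsin by which osteoclasts digest bone matrix, had 963 UMIs in 5 barcodes, and Atp6v0d2 213 UMIs in 4. In naive dura the contractile genes Myl9 (193 UMIs) and Acta2 (240 UMIs) were in 4 barcodes each, and Dcn, a fibroblast matrix gene, had 158 UMIs in 3. C1qa, a macrophage complement gene, was in 22 of the 49 naive and 28 of the 44 EAE barcodes. Primary granule genes were at 4735 CPM in cluster 2, carried by 27 of its 44 EAE and 2 of its 49 naive barcodes. That sum came from few barcodes: the median share of UMIs was 0.0221% in its EAE barcodes (0 to 4.83) and 0% in its naive ones. Of the 62 naive and 1022 EAE Ctsk UMIs, 90.3% and 94.7% were in unannotated barcodes.

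Cluster 9 (12 naive, 26 EAE) was led by Nkx2-3, Myct1, Procr, Ctla2a, Meis1 and Adgrg1, several of which mark blood stem and progenitor cells, and by Cma1, a mast cell chymase. In its EAE barcodes Cd34 was detected in 20 of 26, Adgrg1 in 21, Flt3 in 14, Meis1 in 13 and Kit in 12, and Cma1 in 3. In its naive barcodes Cma1 was in 5 of 12 and Cd34 in 2. The leading genes mixed these sources, and cluster 9 was left unnamed. Primary granule genes were at 3115 CPM in cluster 9, carried by 21 of its 26 EAE and 3 of its 12 naive barcodes. Their median share of UMIs was 0.0646% in its EAE barcodes (0 to 1.29) and 0% in its naive ones. All but 1 of its 26 EAE barcodes were within or above the annotated ranges of genes without exceeding the mitochondrial limit.

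**Figure D5:**
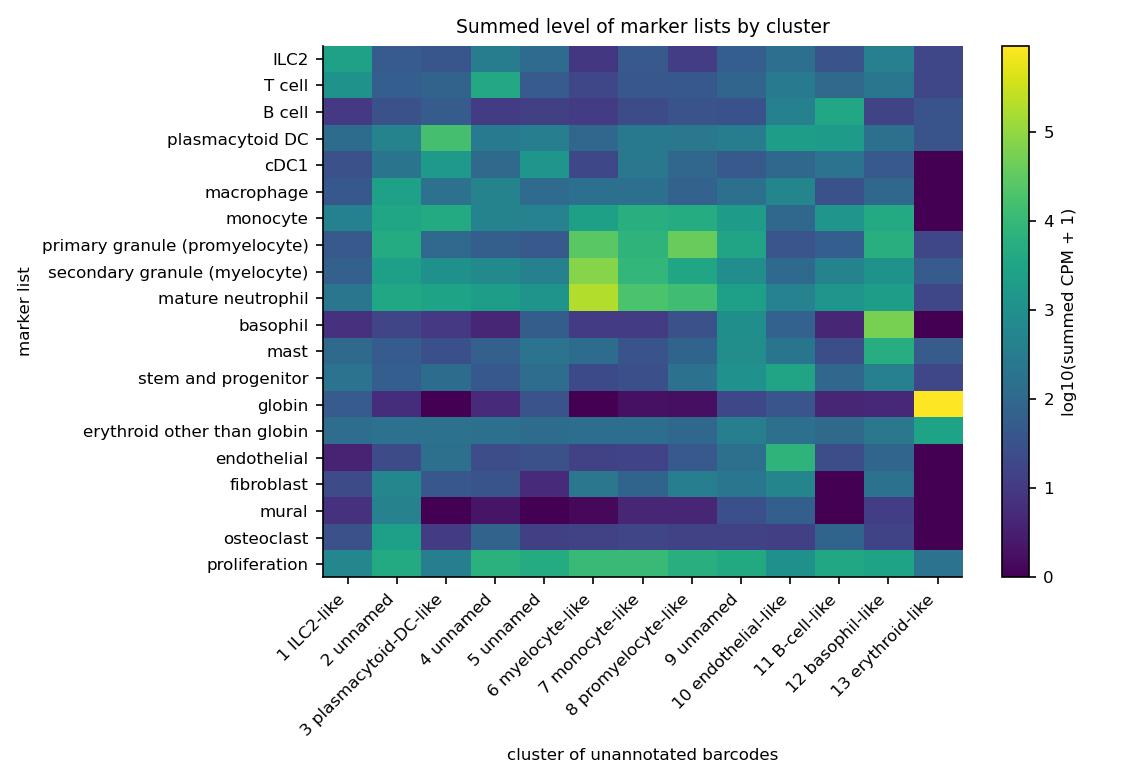
Colour gives the summed level of each marker list (log10 of CPM plus 1) in each cluster of unannotated barcodes. The globin, basophil, endothelial and B cell lists are brightest in the cluster named from them. Cluster 2 holds primary granule genes (4735 CPM summed, an EAE median of 0.0221% of UMIs) together with osteoclast, mural, fibroblast and macrophage genes. Cluster 9 holds primary granule genes (3115 CPM summed, an EAE median of 0.0646% of UMIs) beside stem and progenitor (1066 CPM), basophil (954 CPM) and mast (877 CPM) genes.

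Barcodes with few UMIs or many mitochondrial transcripts made up the remaining groups. Cluster 5 (72 naive, 4 EAE), led by Il12b, Xcr1, Ccl17, Ccl22 and Clec9a, had a median of 770 UMIs and 14.9% mitochondrial UMIs in naive dura, and 67 of its 72 naive barcodes were above the mitochondrial limit. Clec9a and Xcr1, markers of conventional type 1 dendritic cells, were detected in 7 and 5 of those 72. Cluster 4 (27 naive, 50 EAE) held T cell genes, with Cd3d in 45 and Trbc2 in 47 of the 50 EAE barcodes, and 40 of those 50 were above the mitochondrial limit. It was left unnamed because its naive barcodes had a median of 664 UMIs and no T cell list gene was among its leading 10. Against 727 annotated T and NK cells of the EAE library, 0 of 8 T cell genes were past 2-fold in either direction, where 5.75% of 9600 genes were higher, 6.21% lower and 12% either, a comparison also added after the data were seen. Gzmk, its leading gene, had 66 naive UMIs in 7 barcodes and 1 in EAE. The 29 B-cell-like barcodes had medians of 11.6% (naive) and 4.34% (EAE) mitochondrial UMIs, with Cd79a in 17 of 17 EAE and 6 of 12 naive barcodes.

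Over whole libraries, proliferation genes were higher in unannotated barcodes: 18 of 18 past 2-fold in naive (median log2 ratio 2.55) and 17 of 18 in EAE (1.68). Past 2-fold lower were 7 of 7 mast genes in naive dura, where 8.68% of all genes were, and 5 of 7 in EAE, where 13.9% were. Inflammatory genes were past 2-fold lower in 10 of 14 and 12 of 14. Macrophage genes were lower in 6 of 8 naive and 9 of 9 EAE, and interferon-response genes lower in 1 of 16 naive and 14 of 16 EAE. Over all genes, 23.6% of 11526 were past 2-fold in naive and 29.5% of 12888 in EAE, 63.2% and 53.1% of them higher. With TMM scaling, which shifts log2 ratios by -0.25 and -0.17, 46.6% and 41.1% were higher. The EAE and naive unannotated barcodes differed past 2-fold in 22.5% of 10812 genes, 39.0% of them higher in EAE, or 52.1% when each barcode had equal weight. The libraries also differed in Xist, transcribed from the inactive X chromosome: 929 UMIs in naive and 0 in EAE unannotated barcodes, and 3675 and 0 in annotated ones. The Y-linked Eif2s3y was at 12.2 and 49.2 CPM. This difference between the pools and the condition cannot be told apart.

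The genes named most often lie as follows in GRCm38, the assembly also called mm10 to which the deposited counts refer, by GENCODE M21. Elane (chr10:79886247-79888215) and Prtn3 (chr10:79874476-79883174) lie close together on the plus strand of chromosome 10. Ctsg (chr14:56099881-56102574) and Mcpt8 (chr14:56082166-56085273) lie close together on the minus strand of chromosome 14. Mpo (chr11:87793581-87804413) and the alpha globin genes Hba-a1 (chr11:32283511-32284465) and Hba-a2 (chr11:32296489-32297298) lie on the plus strand of chromosome 11, as does Il5 (chr11:53720794-53725106), with Il13 (chr11:53631324-53634702) nearby on the minus strand. The beta globin genes Hbb-bs (chr7:103826534-103828096) and Hbb-bt (chr7:103812524-103813996) lie on the minus strand of chromosome 7.

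B cell receptor contigs came, per the labels, from a circularised and enriched part of the 3′ cDNA that kept its barcodes and UMIs, and gave a readout that the annotation rule did not use. The EAE contig table (1185 barcodes) held 82 of the 421 unannotated EAE barcodes (19.5%, 15.8 to 23.6), against 795 of 4579 annotated EAE cells (17.4%, 16.3 to 18.5). The naive table (159 barcodes) shared no barcode with either library, so naive contigs are not described, and the EAE table held 3 naive annotated cells. B-cell-like barcodes had a contig in 11 of 17 (64.7%, 38.3 to 85.8) and plasmacytoid-DC-like ones in 37 of 89 (41.6%, 31.2 to 52.5), beside 45 of 126 (35.7%, 27.4 to 44.7) of annotated pDC. Myelocyte-like barcodes had one in 7 of 66, monocyte-like ones in 7 of 61, promyelocyte-like ones in 3 of 48 and basophil-like ones in 0 of 15 (upper bound 21.8%).

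Identical productive chains recurred across these groups, and the junctions of the 2 most shared heavy and the 2 most shared light chains are shown because the same nucleotides lay in B-cell-like and granulocyte barcodes alike. Capitals mark the first and last codon of each complementarity-determining region 3, as the deposited table gives it, 5′ to 3′.
IGHV8-8 with IGHJ4 and IGHA: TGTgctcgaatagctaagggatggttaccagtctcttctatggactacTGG
IGHV7-1 with IGHJ1 and IGHM: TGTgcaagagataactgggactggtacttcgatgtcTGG
IGKV15-103 with IGKJ1: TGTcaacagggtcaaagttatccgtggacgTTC
IGKV1-88 with IGKJ2: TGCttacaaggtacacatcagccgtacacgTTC

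The IGHV8-8 chain was in 16 unannotated barcodes of 8 clusters, among them 3 promyelocyte-like, 3 myelocyte-like, 2 plasmacytoid-DC-like and 2 B-cell-like, and in 83 annotated EAE cells, of which 7 were in the authors' B cell clusters. Its contigs had between 1 and 103 UMIs in the unannotated barcodes, with a median of 23. The IGHV7-1 chain was in 10 unannotated barcodes, 6 of them plasmacytoid-DC-like, and in 59 annotated cells. The IGKV15-103 chain was in 38 unannotated and 356 annotated barcodes, and the IGKV1-88 chain in 23 and 175. The 33 unannotated barcodes with a productive heavy chain held 14 distinct heavy chains. The source of the shared contigs was not tested.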

How the data were processed

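The authors deposited a matrix of unnormalized UMI counts (genes by barcodes) for the 2 pooled mouse libraries, made with Cell Ranger 3.1.0 and the mm10 build per the submitters' processing notes, from 10x 3′ libraries per the labels' protocols. The deposited contig tables give UMI counts per contig. Conditions are those of the titles. The descriptions of the contig samples name the opposite condition. No filter or doublet step is given in the sources used here, and no doublet caller was run. Of the barcode sequences, 8 occurred in both libraries, 1 of them unannotated in a library.

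The 771 barcodes were clustered with scanpy 1.11.5 (10000 counts per barcode, log, 2000 variable genes, 20 components, 15 neighbours, Leiden resolution 1, seed 0). A cluster was named from its marker list only if at least 3 markers were detected, its leading genes did not go against the name and its depth was not below its library's median divided by 3 with no list marker among its leading 10. Summed counts gave CPM, compared over genes with 20 or more UMIs on both sides together. Past 2-fold is the call, with exact conditional binomial 95% intervals and 3 UMIs in place of 0. A barcode carried a list from 3 UMIs. Nearest clusters used Spearman correlation. TMM factors came from edgeR 4.0.16. Scripts were tested on simulated data. Genes named are all primary granule, globin and erythroid genes, examples of other lists, the 10 largest and smallest ratios of a comparison and the 10 leading genes of a cluster, of which the text gives some. A few genes of the erythroid list are not reported here. The members, the 39 lists (344 of 345 genes were in the matrix) and the rules were chosen with earlier results of these data known.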

Additional observations from a re-analysis of the deposited data

How the results depend on the processing

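No paired analysis was possible because each condition is 1 pooled library. The share of barcodes with a source list followed the UMI minimum. For primary granule genes in EAE it was 66.5% at 2 UMIs, 53.2% at 5 UMIs and 42.3% thinned to 1000 UMIs, and in naive dura 41.2% among the 51 members as deep as the lowest annotated EAE cell. For erythroid genes other than globin it was 72.2%, 31.6% and 0.114% in EAE and 33.7% with 2 genes required, and in naive dura 15.1%, 6.57% and 2.00%, with 64.7% among those 51. For globin it was 7.84% among those 51, and in EAE 0.000836% thinned and 0% with 2 genes required. At resolution 0.5 the cluster highest in primary granule genes had 94 barcodes, which held all 56 of the 1 reported. Over the 2000 variable genes, 22.1% of EAE members were nearest to BcProg and 23.8% to granuloProli, in place of 29.7% and 17.8%. Barcodes with 2 lineages were 23.1% and 8.57% (naive) and 93.6% and 60.1% (EAE) at 2 and 5 UMIs. Genes past 2-fold higher in EAE over naive members numbered 950, or 2344 with equal weight per barcode and 1486 within the annotated ranges, an alternative chosen after seeing the data. Genes lower numbered 1484, or 901 at 50 UMIs. In naive unannotated over annotated barcodes 1716 were higher, 2587 with equal weight and 1136 at 50 UMIs. The causes were not tested. The other 45 recomputed main values stayed within their interval or 1.5 times, and no named gene past 2-fold changed direction in 362 recomputed ratios, but 80 of them left their interval. With equal weight 18 of 36 (EAE over naive), 21 of 36 (naive) and 12 of 34 (EAE) did, and 15 of 25 within the annotated ranges. Car2, within 2-fold as reported, then went to log2 1.10 (EAE over naive) and -1.21 (naive), and Mkrn1 with TMM factors to -1.01 (EAE). The contig share was 19.5% with productive contigs alone and with 3 UMIs required, both chosen after seeing the data.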
